A study of Mus musculus with 32 samples.

Results

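The 48 genes described here encode the nuclear-encoded subunits of respiratory complexes II, III, IV and V and the electron carrier cytochrome c. They were chosen by symbol: each has a probe set whose only symbol in the platform's annotation is Sdha, Sdhb, Sdhc, Sdhd, Cyc1 or Cycs, or begins with Uqcr, Atp5 or Cox followed by a number between 4 and 8. They made up 48 of 19938 named genes on the array, with 4 genes for complex II, 9 for complex III, 1 for cytochrome c, 17 for complex IV and 17 for complex V. Each gene was represented by its brightest probe set over the 32 arrays. Of the 48, 47 had a mean signal at or above 4.48 log2, the threshold for testing, and were tested among 15219 genes. The exception was Cox7b2, a testis-type isoform, with a mean of 3.36 log2. Cox7c was not analysed here, since each of its 3 probe sets also named a second gene.

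Complex II oxidises succinate, complex III passes electrons from ubiquinol to cytochrome c, complex IV (cytochrome c oxidase) hands them to oxygen, and complex V (ATP synthase) makes ATP from the resulting proton gradient. Complexes III and IV pump protons, while complex II does not and also belongs to the citrate cycle. The heart makes most of its ATP this way. In heart and skeletal muscle, several subunits of complex IV exist as a muscle isoform beside a widespread isoform, each from its own gene: Cox6a2 beside Cox6a1, Cox7a1 beside Cox7a2, and, in mice, Cox8b beside Cox8a.

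Both atria of 16 mice, bred on mixed C57BL/6 and FVB/N backgrounds, were profiled, with 1 array per atrium. There were 4 Mst1 transgenic animals (mammalian sterile 20-like kinase 1, a kinase of the Hippo pathway encoded by Stk4), 4 dnPI3K animals (a dominant negative phosphoinositide 3-kinase, which blocks a growth and survival signal), 4 double transgenic animals carrying both (dnPI3K-Mst1) and 4 non-transgenic controls (Ntg). The labels name neither the promoter of each transgene nor the age or sex of the animals. Values are log2 signals and each animal entered genotype comparisons as the mean over its atria. The p-values therefore reflect only how far these 4 animals per genotype vary, and that number limits the precision. In bulk tissue, fewer cells of a type and less RNA per cell cannot be told apart. Stk4 lay between 8.03 and 8.42 log2 on the Mst1 arrays, between 7.34 and 7.997 on the dnPI3K arrays, between 8.12 and 8.51 on the dnPI3K-Mst1 arrays and between 7.30 and 7.77 on the Ntg arrays. Every array from an Mst1 carrier was therefore above every array from the other animals. No gene was taken as a check of dnPI3K, because the form of the kinase it encodes is not described in the labels.

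Array medians lay between 5.51 and 5.68 log2. For 4 arrays, Ntg 1662 right and the left arrays of Mst1 1466, dnPI3K 1507 and dnPI3K 3241, the correlation with the rest averaged under 0.97. The atrial myocyte genes Nppa, Myl4 and Myl7 had high mean signals of 13.41, 12.71 and 12.39 log2, as the tissue label asks. Myl2, a ventricular light chain, was 10.70 log2 on dnPI3K 1648 left, against 4.40 to 8.15 on the other 31 arrays. Ucp1, the uncoupling protein of brown fat, was 8.93 log2 on dnPI3K-Mst1 1650 right and 8.38 on Ntg 1301 left, against 4.27 to 5.09 on the other 30 arrays. Cox8b is also a brown fat gene, so its values, and those of Cox7a1, are given with and without those 2 animals. Bmp10, a gene of the right atrium, was higher on the array labelled left in 13 of 16 animals, and on the array labelled right in Mst1 1839, Ntg 1301 and Ntg 1662. Sides are therefore given as labelled throughout.

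In Mst1 atria the subunits of all 4 complexes were lower than in Ntg atria. Of the 47 tested genes, 42 fell and none rose (limma, Benjamini-Hochberg adjusted p under 0.05), while 14.2% of all tested genes were called lower and 12.6% higher. The median change of the 47 was -0.55 log2, beside -0.0011 for all 15219 genes. In 37 of the 47 tested genes, the 4 Mst1 animals all lay below the 4 Ntg animals, as they did for 14.6% of all tested genes. All 4 genes of complex II fell, with a median of -0.73 log2, as did all 9 of complex III (-0.75), cytochrome c (-0.68) and all 17 of complex V (-0.50). In complex IV 11 of 16 fell, with a median of -0.42 log2. The 16 include Cox4i2, Cox6b2 and Cox8c, low-signal isoforms known from other tissues that changed little and pull this median toward 0. Differences between complexes were not tested.

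The same 42 genes fell in dnPI3K-Mst1 atria against Ntg, again with none higher. The background there was 14.2% of all tested genes lower and 16.4% higher. The median change was -0.79 log2, beside 0.017 for all genes. In 42 of the 47 the dnPI3K-Mst1 animals all lay below the Ntg animals, as they did for 15.1% of all tested genes. By complex the medians were -0.84 log2 for complex II, -1.01 for complex III, -0.57 for complex IV and -0.75 for complex V, with cytochrome c at -0.95. The complex IV median again includes Cox4i2, Cox6b2 and Cox8c, which changed little. Called falls of at least 2-fold numbered 10 in dnPI3K-Mst1 and 4 in Mst1. The share of all tested genes falling that far is not given here, so these 2-fold counts lack a background. Both comparisons use the same Ntg animals.

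In dnPI3K atria the changes were smaller, and 8 of 47 genes fell while none rose, with 2.75% of all tested genes lower and 1.29% higher. The median change was -0.24 log2, beside -0.0042 for all genes, and 44 of 47 values were below 0. At an unadjusted p under 0.05 there were 26 of 47 members, beside 2568 of all 15219 genes. The 8 that fell were Cox7a1, Sdhb, the complex III genes Uqcrc1, Cyc1, Uqcrq, Uqcrfs1 and Uqcrc2, and Atp5g3. No member fell 2-fold in this comparison. This count was fragile: it was 19 without Mst1 1466 and 14 without dnPI3K-Mst1 1647, animals outside the comparison that enter through the shared spread, and 5 without dnPI3K 1648, the animal with the high Myl2. It was 4 without any 1 of Mst1 1838, Mst1 1839, dnPI3K-Mst1 1509, dnPI3K-Mst1 1649, Ntg 1657 or Ntg 1834. It was 3 without any 1 of dnPI3K 1507, dnPI3K 1660, Ntg 1301 or Ntg 1662, and 1 without dnPI3K 3241. The share of all tested genes called is not given for these left-out fits, so their counts lack a background. The median stayed between -0.26 and -0.21 log2 whichever animal was left out. Over the 28 other settings tried, the call was lost in 20 for Uqcrc2, in 10 for Uqcrq, in 7 for Uqcrfs1 and in 4 each for Cox7a1 and Uqcrc1.

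**Figure D1:**
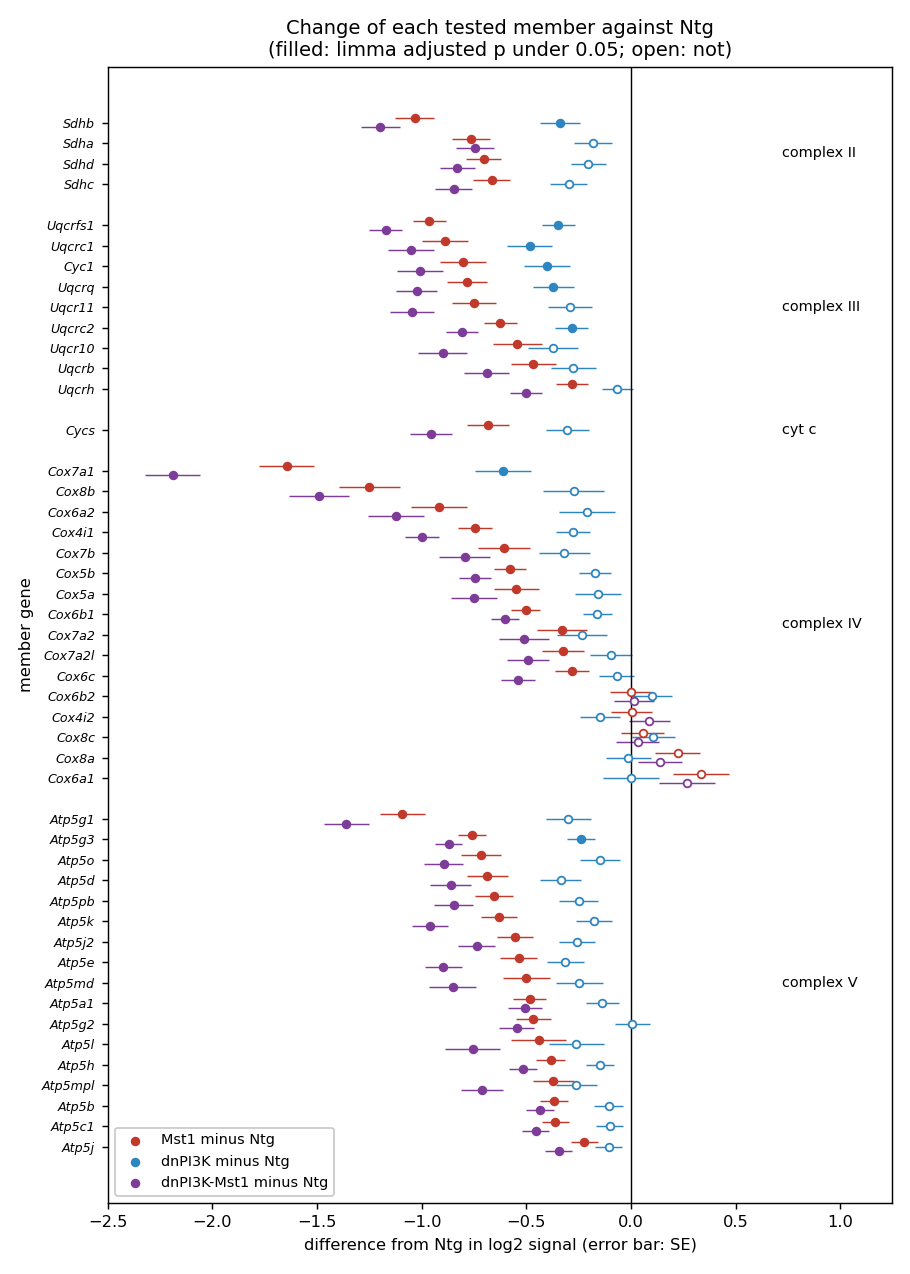
Difference from Ntg in log2 signal for each of the 47 tested genes, grouped by complex and sorted by the change in Mst1, with Mst1 in red, dnPI3K in blue and dnPI3K-Mst1 in purple. Error bars are the SE from the fit over 16 animals. Filled points passed limma at an adjusted p under 0.05 (42, 8 and 42 genes) and open points did not, and Cox6a1, Cox8a, Cox8c, Cox4i2 and Cox6b2 stand near or right of 0 in Mst1 and in dnPI3K-Mst1, with none of these 5 passing.

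Complex II holds 4 subunits. Sdhb, the iron-sulfur subunit that carries electrons out of the flavin site, changed most. Sdhb measured 9.25, 8.94, 9.10 and 9.01 log2 in the 4 Mst1 animals, 9.73, 9.77, 9.87 and 9.71 in dnPI3K, 8.85, 8.68, 9.03 and 9.07 in dnPI3K-Mst1 and 10.01, 10.11, 10.28 and 10.03 in Ntg. The Ntg animals were above all others, the dnPI3K animals came next, and the Mst1 and dnPI3K-Mst1 animals overlapped at the bottom. The fall was 2.05-fold in Mst1 (-1.03 ± 0.09 log2, SE, limma adjusted p = 1.03e-07), 1.26-fold in dnPI3K (-0.34 ± 0.09, limma adjusted p = 0.048) and 2.29-fold in dnPI3K-Mst1 (-1.20 ± 0.09, limma adjusted p = 1.23e-08), each against Ntg. The dnPI3K call of Sdhb was lost in 20 of the 28 other settings tried. Sdha, the flavoprotein that binds succinate, fell by 41.2% in Mst1 and by 40.4% in dnPI3K-Mst1. Its change in dnPI3K was -0.18 log2 and did not pass (limma adjusted p = 0.33). The membrane anchors Sdhc and Sdhd changed by -0.67 and -0.70 log2 in Mst1 and by -0.85 and -0.83 in dnPI3K-Mst1, all 4 values passing.

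In complex III the Rieske iron-sulfur protein Uqcrfs1, which takes the first electron from ubiquinol, had the largest fall. Uqcrfs1 measured 8.44, 8.30, 8.48 and 8.39 log2 in the 4 Mst1 animals, 9.05, 9.13, 9.02 and 8.87 in dnPI3K, 8.23, 8.05, 8.17 and 8.32 in dnPI3K-Mst1 and 9.46, 9.36, 9.31 and 9.34 in Ntg. No transgenic animal reached the Ntg range, and every dnPI3K animal was above every Mst1 and dnPI3K-Mst1 animal. The changes against Ntg were -0.96 ± 0.08 log2 in Mst1 (limma adjusted p = 2.65e-08), -0.35 ± 0.08 in dnPI3K (limma adjusted p = 0.015) and -1.17 ± 0.08 in dnPI3K-Mst1 (limma adjusted p = 1.5e-09). Cyc1, the cytochrome c1 that passes the electron on, fell 1.74-fold in Mst1, 1.32-fold in dnPI3K and 2.01-fold in dnPI3K-Mst1, with the dnPI3K call lost in 18 of 28 other settings.

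The core protein gene Uqcrc1 had the largest dnPI3K change of complex III. Uqcrc1 measured 9.73, 10.00, 10.16 and 10.23 log2 in the 4 Mst1 animals, 10.44, 10.51, 10.58 and 10.21 in dnPI3K, 9.92, 9.62, 9.86 and 10.07 in dnPI3K-Mst1 and 10.94, 10.88, 10.92 and 10.94 in Ntg. The dnPI3K animals lay below the Ntg animals without overlap. Its changes were -0.89 log2 in Mst1, -0.48 in dnPI3K (limma adjusted p = 0.015) and -1.05 in dnPI3K-Mst1. The second core protein gene, Uqcrc2, changed by -0.62, -0.28 and -0.81 log2 in the same order, and the ubiquinone-binding subunit gene Uqcrq by -0.78, -0.37 and -1.02. The smallest change of the complex belonged to Uqcrh, the hinge protein between cytochrome c1 and cytochrome c, at -0.28 log2 in Mst1 and -0.50 in dnPI3K-Mst1, both passing. Its dnPI3K value of -0.06 log2 did not pass (limma adjusted p = 0.74).

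Cycs encodes cytochrome c, the mobile carrier between complexes III and IV. Cycs measured 11.02, 10.73, 10.80 and 10.47 log2 in the 4 Mst1 animals, 11.26, 11.10, 11.00 and 11.18 in dnPI3K, 10.51, 10.25, 10.53 and 10.64 in dnPI3K-Mst1 and 11.49, 11.34, 11.45 and 11.47 in Ntg. The Mst1 and dnPI3K-Mst1 animals were all below the dnPI3K and Ntg animals except for Mst1 1466, which lay just above the lowest dnPI3K animal. Cycs fell 1.60-fold in Mst1 (limma adjusted p = 3.65e-05) and 1.94-fold in dnPI3K-Mst1 (limma adjusted p = 5.37e-07). Its dnPI3K change of -0.30 ± 0.10 log2 did not pass (limma adjusted p = 0.11).

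The genes of ATP synthase fell by unequal amounts. The c subunit, which forms the rotor ring in the membrane, comes from 3 genes that make the same mature protein. Of these, Atp5g1 changed most. Atp5g1 measured 9.90, 9.64, 9.77 and 9.81 log2 in the 4 Mst1 animals, 10.47, 10.71, 10.61 and 10.52 in dnPI3K, 9.64, 9.13, 9.55 and 9.74 in dnPI3K-Mst1 and 10.86, 10.93, 10.98 and 10.72 in Ntg. Ntg animals were highest, the 4 dnPI3K animals were below them without overlap, and the Mst1 and dnPI3K-Mst1 animals were lowest. Atp5g1 fell 2.13-fold in Mst1 (-1.09 ± 0.11 log2, limma adjusted p = 2.84e-07) and 2.57-fold in dnPI3K-Mst1 (-1.36 ± 0.11, limma adjusted p = 1.37e-08), and its dnPI3K change of -0.30 ± 0.11 did not pass (limma adjusted p = 0.14). Atp5g3 changed by -0.76 log2 in Mst1 and by -0.87 in dnPI3K-Mst1, and also passed in dnPI3K, where its change was -0.24 and the call was lost in 21 of 28 other settings. Atp5g2 changed by -0.47 log2 in Mst1 and -0.54 in dnPI3K-Mst1, both passing, and by 0.01 in dnPI3K, where it did not pass.

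The other genes of ATP synthase encode its head, stalks and membrane sector. Atp5a1 and Atp5b, the alpha and beta subunits that form ATP, changed by -0.48 and -0.37 log2 in Mst1 and by -0.51 and -0.43 in dnPI3K-Mst1, and the central shaft gene Atp5c1 by -0.36 and -0.45, all passing. The smaller subunits of the central stalk, Atp5d and Atp5e, changed by -0.69 and -0.54 log2 in Mst1 and by -0.86 and -0.90 in dnPI3K-Mst1. In the peripheral stalk, the change in Mst1 ran between -0.71 log2 for Atp5o and -0.22 for Atp5j, with Atp5pb at -0.65 and Atp5h at -0.38. The membrane-sector genes Atp5k, Atp5j2, Atp5l, Atp5md and Atp5mpl changed by -0.63, -0.55, -0.44, -0.50 and -0.37 log2 in Mst1, and all 5 passed. In dnPI3K none of these genes passed, and their largest changes were -0.33 log2 for Atp5d (limma adjusted p = 0.0613) and -0.31 for Atp5e (limma adjusted p = 0.0504).

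In complex IV the 5 genes that did not pass in Mst1 or in dnPI3K-Mst1 were isoform genes. Cox7a1, the heart and muscle isoform of a subunit at the dimer interface, had the largest fall of all 47 genes in each of the 3 comparisons with Ntg. Cox7a1 measured 9.88, 9.59, 9.77 and 9.60 log2 in the 4 Mst1 animals, 10.58, 10.99, 10.72 and 10.69 in dnPI3K, 9.47, 8.65, 9.16 and 9.38 in dnPI3K-Mst1 and 11.36, 11.32, 11.37 and 11.37 in Ntg. The Ntg animals lay close together, all dnPI3K animals were below them, and all Mst1 and dnPI3K-Mst1 animals were below the dnPI3K animals. Cox7a1 fell 3.13-fold in Mst1 (-1.65 ± 0.13 log2, SE, limma adjusted p = 2.3e-08), 1.53-fold in dnPI3K (-0.61 ± 0.13, limma adjusted p = 0.011) and 4.56-fold in dnPI3K-Mst1 (-2.19 ± 0.13, limma adjusted p = 4.21e-10). Its widespread partner changed less. Cox7a2 measured 10.22, 9.70, 9.71 and 9.44 log2 in the 4 Mst1 animals, 9.83, 9.83, 9.81 and 9.98 in dnPI3K, 9.55, 9.41, 9.77 and 9.60 in dnPI3K-Mst1 and 10.01, 10.18, 10.15 and 10.05 in Ntg. Mst1 1466 was above all 4 Ntg animals, while the other Mst1 animals and all dnPI3K-Mst1 animals were below them. Cox7a2 changed by -0.33 ± 0.12 log2 in Mst1, with a limma adjusted p of 0.048 that exceeded 0.05 in 19 of the 28 other settings tried, and fell 1.42-fold in dnPI3K-Mst1 (limma adjusted p = 0.00265).

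Cox8b and Cox8a encode the muscle and the widespread form of a small membrane subunit. Cox8b measured 10.09, 9.46, 9.66 and 9.40 log2 in the 4 Mst1 animals, 10.49, 10.76, 10.47 and 10.80 in dnPI3K, 9.46, 9.14, 9.49 and 9.57 in dnPI3K-Mst1 and 10.73, 10.98, 11.23 and 10.68 in Ntg. Every Mst1 and dnPI3K-Mst1 animal was below every dnPI3K and Ntg animal, while dnPI3K and Ntg overlapped. Cox8b fell 2.38-fold in Mst1 (-1.25 ± 0.15 log2, limma adjusted p = 2.15e-06) and 2.81-fold in dnPI3K-Mst1 (-1.49 ± 0.15, limma adjusted p = 1.87e-07), with -0.27 ± 0.15 in dnPI3K (limma adjusted p = 0.36). Without Ntg 1301 and dnPI3K-Mst1 1650, the animals with high Ucp1, Cox8b changed by -1.31 log2 in Mst1 and by -1.60 in dnPI3K-Mst1, while dnPI3K differed from Ntg by -0.33. Cox8a measured 9.06, 8.71, 8.78 and 8.81 log2 in the 4 Mst1 animals, 8.39, 8.82, 8.57 and 8.62 in dnPI3K, 8.76, 8.57, 8.89 and 8.79 in dnPI3K-Mst1 and 8.63, 8.70, 8.75 and 8.37 in Ntg. Its groups overlapped. The change of Cox8a was 0.22 ± 0.11 log2 in Mst1 (95% interval 0.0010 to 0.45, limma adjusted p = 0.14) and 0.14 ± 0.11 in dnPI3K-Mst1 (-0.085 to 0.36, limma adjusted p = 0.36).

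Cox6a2 and Cox6a1 encode the 2 forms of a subunit that takes part in regulating the enzyme. Cox6a2 measured 10.59, 10.19, 10.35 and 10.44 log2 in the 4 Mst1 animals, 10.85, 11.34, 11.05 and 11.15 in dnPI3K, 10.34, 9.69, 10.37 and 10.33 in dnPI3K-Mst1 and 11.20, 11.35, 11.40 and 11.28 in Ntg. The Mst1 and dnPI3K-Mst1 animals were all below the dnPI3K and Ntg animals. Cox6a2 fell 1.89-fold in Mst1 (limma adjusted p = 2.65e-05) and 2.18-fold in dnPI3K-Mst1 (limma adjusted p = 1.92e-06), with -0.21 log2 in dnPI3K (limma adjusted p = 0.47). Cox6a1 measured 9.32, 8.87, 8.94 and 8.98 log2 in the 4 Mst1 animals, 8.55, 8.87, 8.79 and 8.56 in dnPI3K, 9.04, 8.61, 9.08 and 9.12 in dnPI3K-Mst1 and 8.85, 8.94, 8.60 and 8.39 in Ntg. The genotypes overlapped. The change of Cox6a1 was 0.33 ± 0.13 log2 in Mst1 (95% interval 0.055 to 0.61, limma adjusted p = 0.0728) and 0.27 ± 0.13 in dnPI3K-Mst1 (-0.012 to 0.55, limma adjusted p = 0.14). It passed as higher in Mst1 without Ntg 1657 (0.42 log2, limma adjusted p = 0.037) or without dnPI3K-Mst1 1647 (0.33, 0.043), and in dnPI3K-Mst1 without dnPI3K-Mst1 1647 (0.39, 0.032) or with animal weights (0.34, 0.016).

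The remaining genes of complex IV have no muscle isoform. Cox4i1, Cox5a and Cox5b, subunits close to the catalytic core, changed by -0.75, -0.55 and -0.58 log2 in Mst1 and by -0.997, -0.75 and -0.74 in dnPI3K-Mst1, all passing. Cox6b1, Cox6c, Cox7b and Cox7a2l, the last a factor that joins complexes III and IV into supercomplexes, changed by -0.50, -0.28, -0.61 and -0.32 log2 in Mst1 and by -0.60, -0.54, -0.79 and -0.49 in dnPI3K-Mst1, all passing. The isoforms known from other tissues had low signals. Cox4i2, a lung form that answers to low oxygen, averaged between 6.00 and 6.24 log2 over the 4 genotypes. The testis forms Cox6b2 and Cox8c averaged between 5.27 and 5.38 and between 5.43 and 5.54. None of these 3 passed in any genotype comparison against Ntg, with changes between -0.15 and 0.11 log2.

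**Figure D2:**
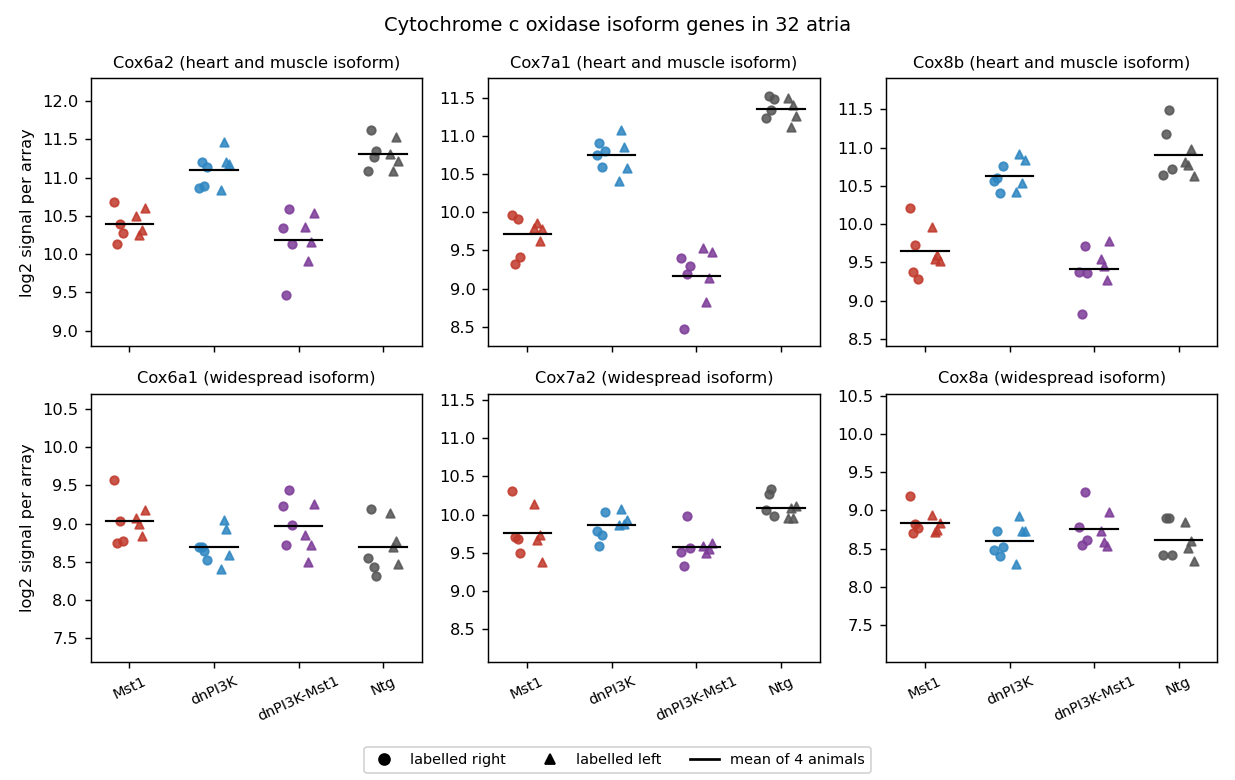
Log2 signal of 6 isoform genes of cytochrome c oxidase on each of the 32 arrays, by genotype, with circles for atria labelled right, triangles for atria labelled left and a black line at the mean of 4 animals. Each panel spans the same 3.5 log2 units but starts at its own value, since signals of different genes cannot be set against each other. In the upper row (Cox6a2, Cox7a1, Cox8b) the Mst1 and dnPI3K-Mst1 arrays lie below the dnPI3K and Ntg arrays. In the lower row (Cox6a1, Cox7a2, Cox8a) the genotypes lie closer together. For Cox7a2 every dnPI3K-Mst1 animal mean (9.41 to 9.77 log2) is still below every Ntg animal mean (10.01 to 10.18).

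Within an animal, the log2 difference between a muscle isoform and its widespread partner shows whether the pair changed unequally, whatever the total signal. Its level has no meaning by itself. Cox7a1 minus Cox7a2 averaged -0.06 ± 0.22 in Mst1 and -0.42 ± 0.32 in dnPI3K-Mst1, against 1.26 ± 0.10 in Ntg (SD, n = 4 each), which are shifts of -1.32 and -1.68 log2. Cox8b minus Cox8a averaged 0.82 ± 0.19 in Mst1 and 0.66 ± 0.10 in dnPI3K-Mst1, against 2.29 ± 0.16 in Ntg, shifts of -1.48 and -1.63. Cox6a2 minus Cox6a1 averaged 1.36 ± 0.09 in Mst1 and 1.22 ± 0.10 in dnPI3K-Mst1, against 2.61 ± 0.27 in Ntg, shifts of -1.25 and -1.39. In these 6 comparisons the groups did not overlap, and the exact permutation test (two-sided) gave p = 0.0286, the smallest that 4 animals against 4 allow, or 0.0476 after Benjamini-Hochberg adjustment over the 25 tests made on 5 pairs in 5 comparisons.

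The shift was smaller in dnPI3K, where no pair passed. Against Ntg, Cox7a1 minus Cox7a2 differed by -0.38 log2 (exact p = 0.0571, adjusted 0.0840), Cox8b minus Cox8a by -0.26 (exact p = 0.0857, adjusted 0.119) and Cox6a2 minus Cox6a1 by -0.21 (exact p = 0.257, adjusted 0.268). All 3 pairs were lower in dnPI3K-Mst1 than in dnPI3K, with differences of -1.30, -1.37 and -1.18 log2 in that order and an exact p = 0.0286 each. Against Mst1, dnPI3K-Mst1 differed by -0.36, -0.15 and -0.14 log2 in the same order, and none passed (exact p between 0.114 and 0.229). Of the 25 tests 15 reached an adjusted p of 0.0476, and 6 of the 15 belonged to Cox4i2 minus Cox4i1 and Cox6b2 minus Cox6b1, whose differences restate the falls of Cox4i1 and Cox6b1, since Cox4i2 and Cox6b2 had low signals that changed little. All 15 had the smallest possible p, and with 14 such tests in place of 15 the adjusted p is 0.0510. With quantile normalization, or with any 1 of the 4 Mst1 animals left out, there were 14, so none passed, while the shifts of the 3 muscle pairs in Mst1 and dnPI3K-Mst1 stayed between -1.70 and -1.22 log2 without overlap. The same ratios in the limma fit gave 14 calls of 25.

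**Figure D3:**
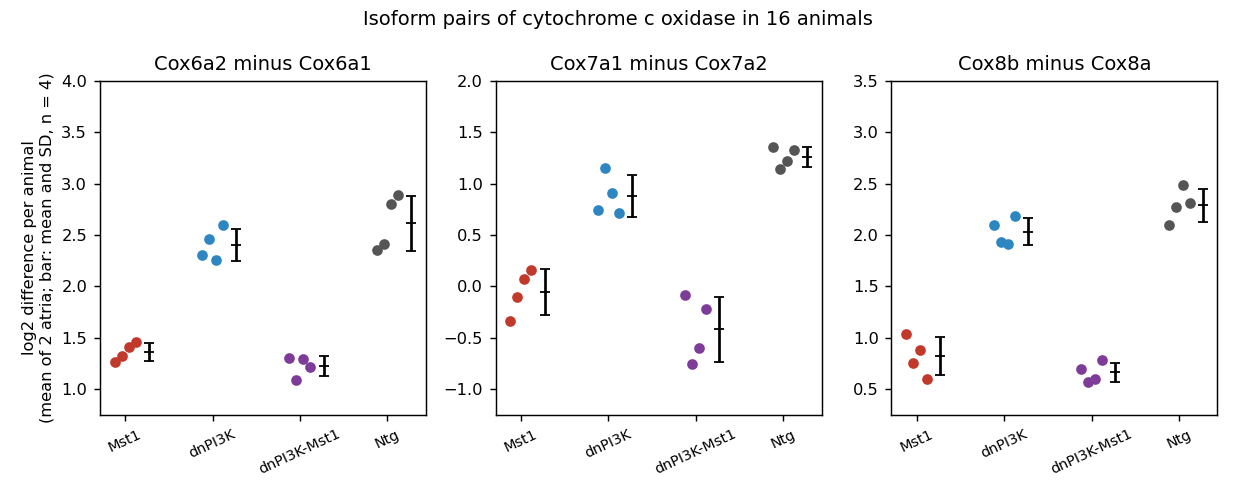
Log2 signal of the heart and muscle isoform minus that of the widespread isoform in each animal (mean of 2 atria), for 3 pairs and 4 genotypes, with black bars for the mean and SD of 4 animals. The Mst1 and dnPI3K-Mst1 animals lie below all dnPI3K and Ntg animals in each pair, for example between -0.76 and 0.16 against 0.71 to 1.36 for Cox7a1 minus Cox7a2.

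The upstream sequences of the muscle and widespread isoform genes are shown for the 2 pairs with an entry for both genes, because these genes differed most in their change. The 250 bases before the RefSeq start site (GRCm38.p6) lie at chr7:30183921-30184170 on the plus strand for Cox7a1, chr9:79759854-79760103 on the minus strand for Cox7a2, chr7:140900447-140900696 on the minus strand for Cox8b and chr19:7217617-7217866 on the minus strand for Cox8a. Capitals mark matches on either strand to AAGGTCA (the half-site of oestrogen-related receptors), the NRF1 motif (GCGC, any 2 bases, GCGC), CCAAT or CAGCTG (an E-box), of which no matches overlap here.
Cox7a1: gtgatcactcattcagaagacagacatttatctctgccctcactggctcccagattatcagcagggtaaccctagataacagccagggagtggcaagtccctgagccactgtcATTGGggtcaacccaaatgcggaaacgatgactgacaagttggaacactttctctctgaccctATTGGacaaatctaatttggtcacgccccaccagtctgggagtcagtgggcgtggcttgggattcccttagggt
Cox7a2: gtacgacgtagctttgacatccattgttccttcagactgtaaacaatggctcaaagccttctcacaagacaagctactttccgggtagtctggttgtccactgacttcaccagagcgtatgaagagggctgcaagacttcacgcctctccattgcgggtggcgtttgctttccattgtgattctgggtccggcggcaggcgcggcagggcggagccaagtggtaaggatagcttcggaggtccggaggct
Cox8b: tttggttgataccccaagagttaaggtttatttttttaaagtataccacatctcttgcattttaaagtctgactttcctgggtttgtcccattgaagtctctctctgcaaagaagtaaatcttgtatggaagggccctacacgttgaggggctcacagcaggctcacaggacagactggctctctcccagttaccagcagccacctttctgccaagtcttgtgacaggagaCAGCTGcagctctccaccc
Cox8a: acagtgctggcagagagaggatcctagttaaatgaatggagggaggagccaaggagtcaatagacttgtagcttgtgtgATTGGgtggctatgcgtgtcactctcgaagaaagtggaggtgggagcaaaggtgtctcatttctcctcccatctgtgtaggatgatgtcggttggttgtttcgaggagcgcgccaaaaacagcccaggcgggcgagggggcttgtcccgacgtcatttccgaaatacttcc
Cox7a1 held 2 CCAAT matches, Cox8a 1 CCAAT match, Cox8b 1 CAGCTG match and Cox7a2 none of the 4 motifs. A match is a description of these letters and not a binding site. Of the 48 members 36 had such a window. CCAAT was found in 21 of the 36 and in 37.5% of 27025 genes with an entry, the NRF1 motif in 7 and in 5.64%, AAGGTCA in 2 and in 4.70%, and CAGCTG in 2 and in 14.7%. The genes with AAGGTCA were Atp5g3 and Atp5l, and those with CAGCTG were Cox8b and Atp5b.

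Few members passed as lower when dnPI3K was added to Mst1. In dnPI3K-Mst1 against Mst1, 3 of 47 fell and none rose, with 0.848% of all tested genes lower and 2.65% higher. The median change was -0.18 log2, beside 0.0098 for all genes, and 44 of 47 values were below 0. An unadjusted p under 0.05 (limma) was reached by 19 of 47 members, beside 2597 of all 15219 genes. The 3 that fell were Cox7a1 (-0.54 ± 0.13 log2, limma adjusted p = 0.026), the ATP synthase epsilon subunit Atp5e (-0.36 ± 0.09, limma adjusted p = 0.026) and the membrane-sector subunit Atp5k (-0.33 ± 0.09, limma adjusted p = 0.042). The count was 0 without Mst1 1839 or without dnPI3K-Mst1 1647, and 1 without dnPI3K-Mst1 1509. For these left-out fits too, the share of all tested genes called is not given. Adding Mst1 to dnPI3K lowered 41 of 47 in dnPI3K-Mst1 against dnPI3K, with none higher, where 8.80% of all tested genes were lower and 12.8% higher. The median change was -0.55 log2, beside 0.017 for all genes. Compared directly, 31 of 47 were lower in Mst1 than in dnPI3K and none higher, with 10.0% of all tested genes lower and 11.8% higher, and a median of -0.35 log2.

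Whether the 2 transgenes act additively was tested with a further term. This interaction, the dnPI3K-Mst1 change from Ntg less the sum of both single changes, passed for none of the 47 genes (limma), with 0.145% of all tested genes lower and 0.368% higher. It had a median of 0.03 log2, beside 0.03 for all genes, and ran between -0.19 and 0.32. With each animal centred on the sarcomere genes, both medians were 0.16, and still no member passed. At an unadjusted p under 0.05 there was 1 member, Uqcrc1, named here after its values were seen, for which the single changes summed to -1.37 log2 while dnPI3K-Mst1 differed from Ntg by -1.05. For Cox7a1 the single changes summed to -2.26 log2, beside -2.19 in dnPI3K-Mst1. A p that misses the threshold does not show that the effects add exactly.

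The median signal of the 47 genes lay between 10.00 and 10.16 log2 in the Mst1 animals, between 10.56 and 10.71 in dnPI3K, between 9.62 and 10.07 in dnPI3K-Mst1 and between 10.86 and 10.98 in Ntg. Animal dnPI3K-Mst1 1647 had the lowest value of its genotype in 41 of 47 genes, and dnPI3K-Mst1 1650 the highest in 25. Ntg 1662 was the highest Ntg animal in 24, while no dnPI3K animal was highest in more than 18 or lowest in more than 16. Animal Mst1 1466, whose left array stood apart, had the highest value of its genotype in 31 of 47 and the lowest in 8. It was highest, for example, for Cox6c (11.83 against 11.40 to 11.55 log2 in the other Mst1 animals) and lowest for Sdha (10.00 against 10.36 in each of the others). Without Mst1 1466, Cox7a1 changed by -1.70 log2 and Cox8b by -1.40 in Mst1 against Ntg.

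Genes with neighbouring roles were counted from lists chosen with earlier results of these data known. Against Ntg, 14.2% of all tested genes were lower and 12.6% higher in Mst1. The shares were 2.75% and 1.29% in dnPI3K, and 14.2% and 16.4% in dnPI3K-Mst1. Of 35 tested assembly and expression factors of complexes II to V, 19 fell and 1 rose in Mst1 (median -0.28 log2), 5 fell in dnPI3K (-0.21) and 27 fell and 1 rose in dnPI3K-Mst1 (-0.43), each against Ntg. Among them Atpaf1, which assembles the head of ATP synthase, changed by -1.03 log2 in Mst1 and -1.13 in dnPI3K-Mst1, Uqcc1, which helps to make cytochrome b, by -0.92 and -1.12, and Taco1, a translational activator of a complex IV subunit, by -1.06 and -1.20. The gene that rose in Mst1 was Cox19 (0.57 log2), a factor of copper delivery. Of 25 tested genes of mitochondrial structure, import and DNA, 18 fell in Mst1 (median -0.41 log2), 2 in dnPI3K (-0.15) and 21 in dnPI3K-Mst1 (-0.45), and none rose. Examples were the outer membrane channel Vdac1 at -0.80 and -0.90 log2, citrate synthase (Cs) at -0.70 and -0.69, and the mitochondrial DNA packaging factor Tfam at -0.49 and -0.64, in Mst1 and dnPI3K-Mst1. None of the 6 subunit genes of mitochondrial DNA was tested.

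**Figure D4:**
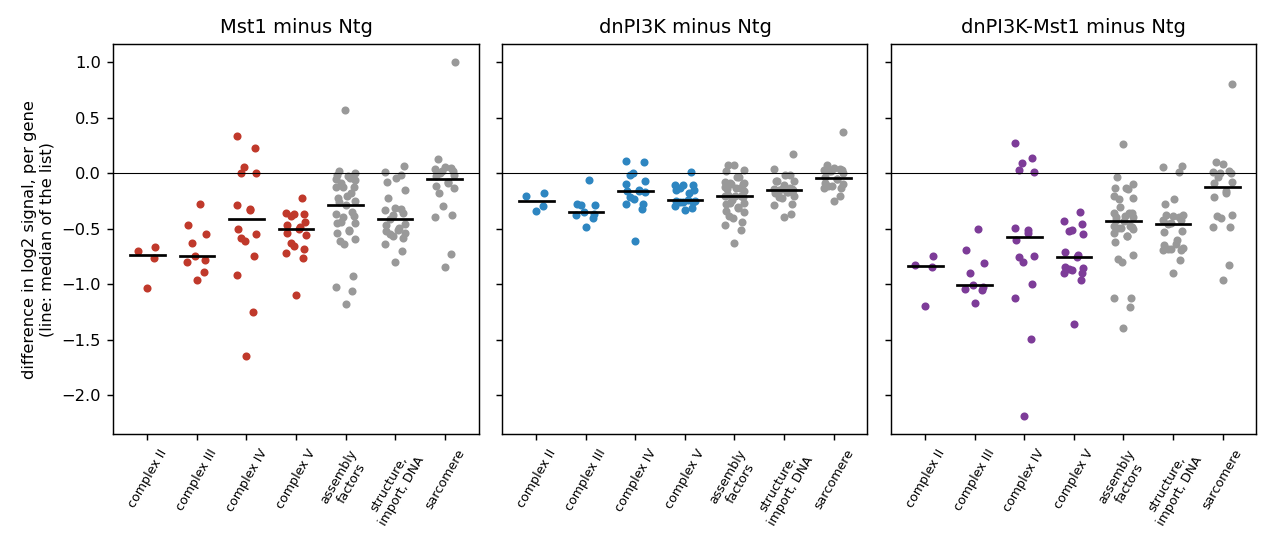
Difference from Ntg in log2 signal for each tested gene of complexes II to V (coloured) and of 3 other lists (grey: assembly and expression factors, mitochondrial structure, import and DNA genes, and sarcomere and Z-disc genes), with a black line at each list's median. In Mst1 the medians run between -0.75 for complex III and -0.05 for the sarcomere list, and in dnPI3K-Mst1 between -1.01 and -0.12.

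Contractile genes and cell markers were read beside these changes. Their background against Ntg is 14.2% of all tested genes lower and 12.6% higher in Mst1. It is 2.75% and 1.29% in dnPI3K, and 14.2% and 16.4% in dnPI3K-Mst1. Of 20 tested sarcomere and Z-disc genes, 4 fell and 1 rose in Mst1 (median -0.05 log2), none passed in dnPI3K (-0.04, 2 at an unadjusted p under 0.05) and 8 fell and 1 rose in dnPI3K-Mst1 (-0.12). Relative to the median of that list in each animal, 30 of the 47 respiratory genes fell in Mst1 and none rose, where 6.66% of all tested genes were lower and 11.9% higher. In dnPI3K-Mst1 33 fell while Cox6a1 (0.52 log2) and Cox8a (0.39) rose, where 4.89% of all tested genes were lower and 39.0% higher. This scaling moved the median of all genes to 0.09 log2 in Mst1 and to 0.27 in dnPI3K-Mst1. Of 8 cardiac myocyte markers 2 fell in Mst1 and 3 in dnPI3K-Mst1, and the log2 of their summed signal ran between 14.97 and 15.34 in Mst1, 15.09 and 15.31 in dnPI3K-Mst1 and 15.30 and 15.45 in Ntg animals. Of 6 atrial myocyte markers 3 fell in Mst1 (14.49 to 14.64 log2), and in dnPI3K-Mst1 4 fell and 1 rose (14.48 to 14.56), against 14.57 to 14.67 in Ntg. Of 8 endothelial markers 5 fell in Mst1, with summed signals between 11.98 and 12.26 log2, against 12.34 to 12.55 in Ntg. In dnPI3K-Mst1 1 endothelial marker fell and 1 rose (12.32 to 12.59 log2). Of 3 tested skeletal muscle markers 2 rose in Mst1 and 2 in dnPI3K-Mst1, and none fell. Of 5 mesothelial markers 3 fell in Mst1 (8.04 to 9.09 log2, against 8.92 to 9.85 in Ntg) and none passed in dnPI3K-Mst1 (limma, none at an unadjusted p under 0.05). Of 8 smooth muscle and pericyte markers 3 fell and 3 rose in Mst1 (11.36 to 11.82 log2), and 1 fell and 4 rose in dnPI3K-Mst1 (11.86 to 12.06), against 11.26 to 11.66 in Ntg. Of 8 fibroblast markers 2 rose in Mst1 (13.66 to 13.71 log2), 1 in dnPI3K (13.37 to 13.73) and 7 in dnPI3K-Mst1 (13.80 to 14.23), against 13.28 to 13.67 in Ntg. Of 8 macrophage markers 1 fell in Mst1 (10.62 to 10.91 log2) and 4 rose in dnPI3K-Mst1 (10.94 to 11.57), against 10.69 to 11.20 in Ntg. Of 4 tested adipocyte markers 2 fell in Mst1 and 1 in dnPI3K-Mst1, and none rose. The part of these cell types in the falls of the respiratory genes was not tested.

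Between the atria as labelled, no member passed, which does not show that the atria are alike. Over the 4 genotypes the right minus left difference passed for none of the 47 genes (limma), nor for any of the 15219 genes, and 2 members had an unadjusted p under 0.05: Atp5j2, a membrane-sector subunit of ATP synthase, at 0.11 ± 0.04 log2 (limma adjusted p = 0.42) and Cox4i2 at -0.13 ± 0.06 (limma adjusted p = 0.56). The next members by p were Sdhd, Uqcrq and Atp5e, at 0.10, 0.09 and 0.09 log2. The median over the 47 was 0.01 log2, and the largest differences were 0.11 and -0.13. Within genotypes no member passed either, with medians of 0.05 log2 in Mst1, 0.03 in dnPI3K, -0.03 in dnPI3K-Mst1 and -0.0060 in Ntg. In Mst1, dnPI3K-Mst1 and Ntg none of the 15219 genes passed. In dnPI3K 0.145% of all tested genes were called lower on the right and 0.499% higher, but no member was among them. The change of the side difference with genotype passed for no member, and for dnPI3K against Ntg 0.0197% of all tested genes were called higher.

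The side labels limit this comparison, since Bmp10 was higher on the array labelled left in 3 Mst1, 4 dnPI3K, 4 dnPI3K-Mst1 and 2 Ntg animals. Where labels run opposite ways, differences between the chambers cancel, and over the 4 genotypes Bmp10 itself did not pass (limma). The tests over the 4 genotypes, in Mst1, in Ntg and against Ntg therefore cannot decide whether the atria differ. In dnPI3K-Mst1 Bmp10 ran the same way in all 4 animals, yet none of the 15219 genes passed, Bmp10 included. That test shares its spread with the genotypes of mixed labels, so it cannot decide the question either. Without the 3 animals in which Bmp10 was higher on the array labelled right, a choice made after seeing the data, all 13 remaining animals run the same way by Bmp10. Still no member passed over the 4 genotypes, and the median was 0.04 log2 right minus left as labelled. The share of all tested genes that passed in this fit is not given here, so absence of a difference does not follow. The genotype falls were present on arrays of either label. On arrays labelled right 36 of 47 members fell in Mst1 and 42 in dnPI3K-Mst1 against Ntg, where 9.78% and 11.3% of all tested genes were lower and 11.8% and 13.4% higher. On arrays labelled left the counts were 39 and 42, with 9.09% and 8.38% of all tested genes lower and 4.90% and 7.50% higher. In dnPI3K no member passed on arrays of 1 label (limma), where 1.05% of all tested genes were lower and 1.18% higher on the right, and 0.499% and 0.191% on the left, with medians of -0.24 log2 on the right and -0.22 on the left.

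**Figure D5:**
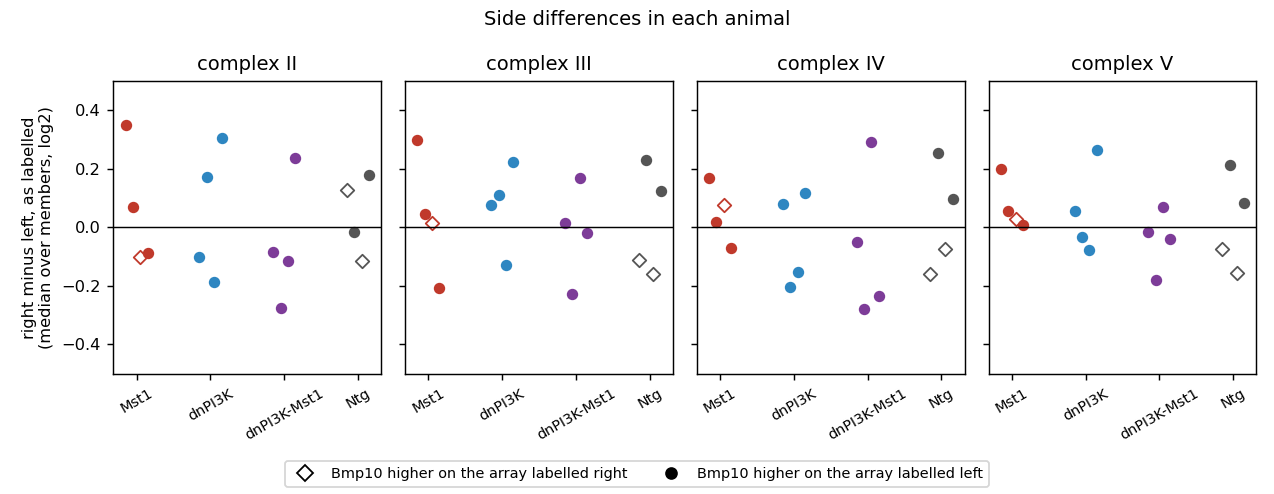
Median over the members of complexes II, III, IV and V of the log2 difference between the array labelled right and the array labelled left, for each of the 16 animals by genotype. Open diamonds are the 3 animals whose Bmp10 was higher on the array labelled right and filled circles the 13 others. Points scatter on both sides of 0 in every complex, within -0.28 to 0.35 log2. In Ntg the 2 diamonds lie below 0 and the 2 circles above 0 in complexes III, IV and V, but not in complex II. The Mst1 diamond lies above 0 in complexes III, IV and V, and the dnPI3K and dnPI3K-Mst1 circles lie on both sides. The Ntg pattern was seen after the fact and was not tested.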

How the data were processed

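RNA from the left and right atrium of 16 mice was measured on Affymetrix Mouse Gene 1.0 ST arrays. The log2 signal values were deposited by the authors, who made them with Affymetrix Expression Console and PLIER per the submitters' processing notes. The log base was inferred from their range of 1.16 to 14.08, and further scaling is not given in the sources used here. Of 35512 probe sets, 21789 had 1 symbol, 1621 several and 12102 none, and 0 columns belonged to other series.

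Genes with a mean under the 30th percentile (4.48 log2) were left out, which kept 15219. Genotypes were compared on the mean of an animal's 2 arrays and sides on the right minus left difference within an animal, with all 4 genotypes in one fit of limma 3.58.1 (eBayes with trend, two-sided, R 4.3.3). P-values were adjusted by Benjamini-Hochberg over all genes tested and called under 0.05. Isoform ratios were tested by exact permutation over animals. The procedure was tested on simulated data. Animals were identified by the number in the titles. Deviations of the 2 arrays of an animal from their group means correlated with a median of 0.05 (lowest -0.42, highest 0.44, over 0.1 in 7 of 16 animals), and the pairing rests on the shared animal.

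The members and lists were chosen with earlier results of these data known. Genes named were the isoform genes, the core subunits, the member of largest change per complex and comparison, members not called in Mst1 or dnPI3K-Mst1, and the 5 members of smallest p between sides. Other members are given by value where their complex is described, and were added after their values were seen. Upstream sequences are from RefSeq, GRCm38.p6. Alternatives covered scaling, filter, probe set choice, variance trend, animal weights, left-out animals, single sides and the animal as a block.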

Additional observations from a re-analysis of the deposited data

Results flagged for a closer look

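Of 164 groups of 4 animals examined, 9 held an animal far from the other 3 by Dixon's criterion, where chance gives about 1 in 20. Animal dnPI3K-Mst1 1647 accounted for 4 of them, each as the lowest of its genotype: Cox4i1 was 9.84 log2 against 10.13 to 10.17 in the other 3, Cox6a1 was 8.61 against 9.04 to 9.12, Cox6a2 was 9.69 against 10.33 to 10.37, and the median of complex II was 8.99 against 9.24 to 9.28. Sdha was 10.00 log2 in Mst1 1466, below 10.36 in the other 3 Mst1 animals, and 11.19 in Ntg 1834, above 10.96 to 10.99 in the other 3. Cox7a2 was 9.98 log2 in dnPI3K 3241, above 9.81 to 9.83. Atp5g3 was 11.77 log2 in Ntg 1662, above 11.67 to 11.68, and Cox7a1 was 11.32 in Ntg 1657, below 11.36 to 11.37.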

How the results depend on the processing

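The counts of members called in either direction in Mst1 and in dnPI3K-Mst1 against Ntg stayed within 1.5 times under every alternative run. In the main fit they were 42 each, all lower. With 1 animal left out they were 38 to 43 and 42 to 43, which includes Cox6a1 where it passed as higher. The other left-out ranges below also count calls in either direction. No called result changed direction. The count for dnPI3K against Ntg, 8, was 4 with no filter on dim genes, 16 with animal weights, 13 with the replicate block (animal as random block over 32 arrays), 0 without the 4 animals whose arrays stood apart, 0 on arrays labelled left, 0 on arrays labelled right, 1 with each animal centred on the sarcomere list, 3 without Ntg 1301 and dnPI3K-Mst1 1650 (chosen after seeing the data), and 1 to 19 with 1 animal left out. The count for dnPI3K-Mst1 against Mst1, 3, was 5 with the replicate block, 1 without the 4 animals that stood apart, 1 without Ntg 1301 and dnPI3K-Mst1 1650, 0 on arrays of either label, 0 with sarcomere centring and 0 to 4 with 1 animal left out. For dnPI3K-Mst1 against dnPI3K, sarcomere centring gave 27 calls in place of 41 lower, with 25 lower and 2 (Cox4i2 and Cox6a1) higher. For Mst1 against dnPI3K it gave 13 lower in place of 31. With 1 animal left out and no centring, the 2 counts were 41 to 42 and 28 to 40. Sarcomere centring moved the median of all genes to 0.24 log2 in dnPI3K-Mst1 against dnPI3K and to 0.05 in Mst1 against dnPI3K. It also moved the median change of the members to -0.54 log2 in dnPI3K-Mst1 against Ntg, -0.33 against dnPI3K and -0.02 against Mst1, and that of non-additivity to 0.16. The 15 isoform ratio tests that passed became 0 with quantile normalization and 0 to 16 with 1 animal left out, because fewer than 15 tests at the smallest possible p leave none past the adjustment; the shifts of the 3 muscle pairs stayed between -1.70 and -1.22 log2 with quantile normalization or without any 1 Mst1 animal. The replicate block moved no other count of members by over 1.5 times. Non-additivity and every side comparison stayed at 0 members with 1 animal left out. The cause of the other changes was not tested. Except on arrays of 1 label against Ntg, the share of all tested genes called is not given for these alternatives. Their member counts therefore lack a background. Without the 4 animals that stood apart, the median side difference of dnPI3K less that of Ntg was -0.16 log2. Without the 3 animals whose Bmp10 was higher on the right, the Ntg side median was 0.15 log2. The alternative that leaves out animals with Bmp10 higher on the left kept 3 animals, 1 Mst1 and 2 Ntg. With 4 animals per genotype, small changes in dim genes such as Cox4i2 or Cox8c could not be measured finely.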
